A study of Mus musculus with 19 samples.

Results

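Leukemic bone marrow of Flt3-ITD knock-in mice was compared with marrow of mice that carried the same knock-in allele and had no leukemia. The libraries were chosen by their labels alone: 3 leukemias were pooled and set against 3 pre-leukemic marrows, which are 6 of the 17 libraries in the series' count table. Polyadenylated RNA was sequenced, and the table holds an estimated number of fragments for each gene. The first 2 leukemias had the genotype ER-cre+, Dnmt3a f/+ and Flt3+/ITD, with 1 floxed Dnmt3a allele, and are called Dnmt3a f/+ leukemia 1 and 2. The remaining leukemia was ER-cre+, Dnmt3a f/f and Flt3+/ITD, with 2 floxed alleles, and is called the Dnmt3a f/f leukemia; it is 1 library. The pre-leukemic marrows were ER-cre-, Dnmt3a f/f and Flt3+/ITD, and are called pre-leukemic marrow 1, 2 and 3. All 6 mice therefore carried 1 Flt3-ITD allele on the C57BL/6 background, and the controls carried floxed Dnmt3a without Cre. Leukemia, the presence of Cre and the loss of floxed Dnmt3a changed together between the groups and cannot be told apart. Age, sex and the time and means of Cre activation are not given in the labels. Replicates are labelled biological, without a named animal for each, and p-values therefore speak only of the spread among these libraries, which may be technical.

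FLT3 is a receptor tyrosine kinase of early blood progenitors, and an internal tandem duplication (ITD) near its membrane leaves the kinase active without ligand, which feeds STAT5 and MAP kinase signalling. DNMT3A is an enzyme that adds methyl groups to unmethylated DNA, and its loss in blood stem cells favours their self-renewal over differentiation. During neutrophil development, progenitors first make primary granule proteins such as myeloperoxidase and elastase, and later stages make secondary and tertiary granule proteins such as lactoferrin and cathelicidin.

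Library totals were 14564549 to 19493379 fragments in the leukemias and 4933886 to 22347360 fragments in the pre-leukemic marrows. Of 23458 gene names, 12768 passed the filter on low counts and were tested. Levels below are CPM, counts scaled to the library size (per 1e6 fragments) after trimmed-mean scaling of the libraries. The pre-leukemic marrows resembled each other, with correlations of log2 CPM across genes of 0.949 to 0.971. Dnmt3a f/+ leukemia 2 and the Dnmt3a f/f leukemia correlated at 0.947. Dnmt3a f/+ leukemia 1 stood apart, correlating at 0.857 with Dnmt3a f/+ leukemia 2, at 0.838 with the Dnmt3a f/f leukemia and at 0.867 to 0.882 with the pre-leukemic marrows. Counts are therefore given both with and without it. Where values of all libraries are listed, they stand in the order Dnmt3a f/+ leukemia 1, Dnmt3a f/+ leukemia 2 and Dnmt3a f/f leukemia, and pre-leukemic marrow 1, 2 and 3.

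**Figure D1:**
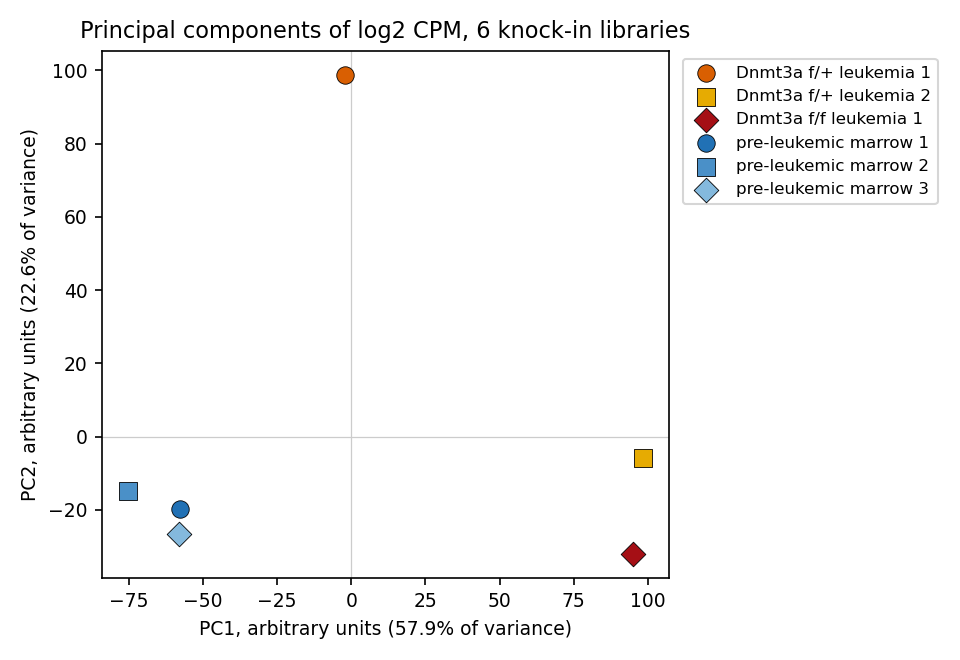
Each point is 1 library on the first 2 principal components of log2 CPM over the tested genes (arbitrary units; the axes carry 57.9% and 22.6% of the variance). Dnmt3a f/+ leukemia 2 and the Dnmt3a f/f leukemia lie at 98.3 and 94.9 on the first axis, Dnmt3a f/+ leukemia 1 at -2 on the first axis and 98.8 on the second, and the pre-leukemic marrows between -75.2 and -57.9 on the first axis.

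The labels describe all 6 samples as bulk marrow without a surface marker sort. A few defining genes of mature marrow cells were set against that label in the pre-leukemic marrows. In the pre-leukemic marrows the erythroid genes Alas2 (heme synthesis) and Slc4a1 (the red cell anion exchanger) stood at 0.184 to 0.871 CPM and 0.368 to 0.788 CPM, and the neutrophil gene S100a8 at 24.7 to 69.1 CPM. The B cell gene Cd79a stood at 1.78 to 6.81 CPM, and the T cell gene Cd3e at 0 to 0.387 CPM. Genes of immature cells were high in the same libraries, with Kit at 520 to 737 CPM and Cd34 at 622 to 825 CPM. The genes named here for mature erythroid, neutrophil, B and T cells were thus low or near 0 in the libraries labelled pre-leukemic bulk marrow. Some other list members were higher there, with Igj of the B list at 487, 366 and 22.2 CPM and Car2 of the erythroid list at 346, 634 and 524 CPM. The summed erythroid list had 1858 to 3207 CPM there, against 1602 to 2784 CPM in the leukemias. The summed B lineage list had 1134 to 1839 CPM there, against 1380 to 1507 CPM in the leukemias. For the T lineage list the sums were 593 to 829 CPM there, against 616.5 to 721 CPM in the leukemias. For the late neutrophil list they were 566 to 844 CPM there, against 3884 to 22010 CPM in the leukemias. In bulk samples, fewer cells of a type and less RNA per cell cannot be told apart, and the part that cell makeup has in each difference below was not tested.

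Across all tested genes, 502 rose and 314 fell in the leukemias at an adjusted p below 0.05, or 6.39% of the genes tested (3.93% rose and 2.46% fell). The change was at least 2-fold for 695 of these 816 genes. The median log2 fold change over all tested genes was 0.06. With upper-quartile scaling that median was -0.04, and 416 genes rose and 421 fell, so the excess of rises depended on the scaling. Without Dnmt3a f/+ leukemia 1 the count was 4319, made of 2374 rises and 1945 falls (18% and 14.8% of the 13183 genes tested in that fit), and it held all 816 genes. Counts of list members given for that fit stand against these shares, and those of the pooled fit against 3.93% and 2.46%. Without the Dnmt3a f/f leukemia it was 157, and without Dnmt3a f/+ leukemia 2, or without any one of the pre-leukemic marrows, no gene passed edgeR's test, while 2569 to 3065 genes had an unadjusted p below 0.05. Every call that follows, in every list, is likewise lost when Dnmt3a f/+ leukemia 2 or any one pre-leukemic marrow is left out.

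**Figure D2:**
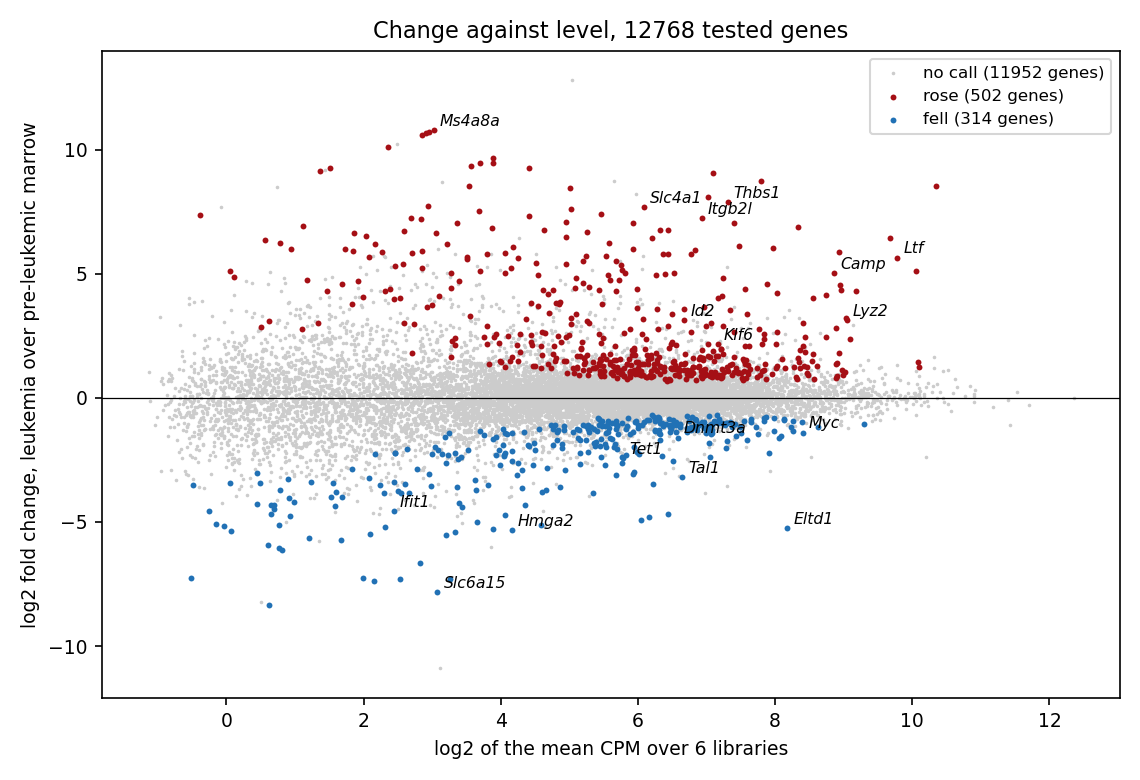
Each point is 1 of 12768 tested genes, with log2 of its mean CPM over the 6 libraries on the horizontal axis and its log2 fold change (leukemia over pre-leukemic marrow) on the vertical axis; red genes rose, blue genes fell and gray genes had no call. The 502 rises lie above 0 and the 314 falls below it, with neutrophil genes such as Ltf and Camp among abundant rises and Eltd1 as an abundant fall.

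The targeted gene was examined first. Dnmt3a (chr12:3806980-3914443, plus strand, mm9) had 55.8 and 48.5 CPM in Dnmt3a f/+ leukemias 1 and 2 and 38.3 CPM in the Dnmt3a f/f leukemia, against 134, 158 and 139 CPM in pre-leukemic marrows 1, 2 and 3. All leukemias lay below all pre-leukemic marrows, and the Dnmt3a f/f leukemia was the lowest. The change passed the test (log2 fold change -1.60, SE 0.20, adjusted p = 0.0262). Both kinds of Dnmt3a model in the deposited transcript counts were lower. The 2 longer models, summed, had 16.4, 25.9 and 20.6 CPM in the leukemias, against 63.1, 97.6 and 67.7 CPM in the pre-leukemic marrows. The shorter model had 39.1, 19.5 and 14.3 CPM in the leukemias, against 75.7, 67.3 and 82.6 CPM in the pre-leukemic marrows. These counts include any reads from a deleted allele outside the floxed part, so they do not measure how complete the deletion was. The de novo methyltransferase Dnmt3b had 112, 37.7 and 33.0 CPM in the leukemias, against 148, 137 and 139 CPM in the pre-leukemic marrows (log2 fold change -1.21, SE 0.47, adjusted p = 0.142). The spread among the leukemias was wide, and Dnmt3b did not pass the test.

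Of 21 tested genes of DNA methylation and demethylation, 1 rose and 2 fell, where 3.93% of all tested genes rose and 2.46% fell. The list's median log2 fold change was -0.24, against 0.06 over all genes. Beside Dnmt3a, the fall was that of Tet1, a dioxygenase that oxidises methylcytosine. It had 21.1, 18.3 and 12.1 CPM in the leukemias, against 83.9, 115 and 79.6 CPM in the pre-leukemic marrows. The groups were far apart, and Tet1 was lower by the test (log2 fold change -2.44, SE 0.29, adjusted p = 0.0237). Tet2, its relative, had 22.0, 158 and 140 CPM in the leukemias, against 54.8, 53.2 and 51.8 CPM in the pre-leukemic marrows, and had no call (adjusted p = 0.329). Dnmt3a f/+ leukemia 1 lay below the pre-leukemic marrows for Tet2 and the other leukemias above them. The rise was that of Mbd2, a reader of methylated DNA (log2 fold change 0.82, adjusted p = 0.0493), and it was lost when the libraries were scaled by median ratios. Dnmt1, the maintenance methyltransferase, had 282, 301 and 439 CPM in the leukemias, against 672, 533 and 757 CPM in the pre-leukemic marrows, without overlap but short of the threshold (adjusted p = 0.064). In the fit that omits Dnmt3a f/+ leukemia 1, 4 of 21 genes of the list rose and 7 fell, where 18% of all genes rose and 14.8% fell. Without the Dnmt3a f/f leukemia 2 genes of the list fell.

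Flt3 itself, which carries the knock-in allele in every sample (chr5:148142317-148212065, minus strand, mm9), had 303, 140 and 104 CPM in the leukemias, against 278, 192 and 152 CPM in the pre-leukemic marrows. The ranges overlapped, and no difference passed the test (log2 fold change -0.18, SE 0.43, adjusted p = 0.814). Kit, a related receptor of stem cells and mast cells, had 31.5, 162 and 160 CPM in the leukemias, against 597, 737 and 520 CPM in the pre-leukemic marrows. Every leukemia was below every pre-leukemic marrow for Kit, and the change missed the threshold (log2 fold change -2.39, SE 0.59, adjusted p = 0.057). Of 9 tested genes in the list for class III receptor tyrosine kinases (the family of Flt3 and Kit), none rose and 1 fell. That list holds 11 genes and is wider than the receptor family itself. The fall was Pdgfrb, the receptor for PDGF-B (log2 fold change -2.05, adjusted p = 0.0473). When Dnmt3a f/+ leukemia 1 was dropped, 2 genes of the list rose and 3 fell, and without the Dnmt3a f/f leukemia none passed.

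Of the 31 gene lists examined, that of late neutrophil granules had the most calls. Of 33 genes of late granules and mature neutrophils in the table, 30 passed the low-count filter, 23 rose and none fell, with a median log2 fold change of 5.58 (the same with 2 genes at 0 in one group held at their bound), against 0.06 over all genes. Their summed level was 3884, 22010 and 16820 CPM in the leukemias, against 652, 844 and 566 CPM in the pre-leukemic marrows. Each leukemia was above each pre-leukemic marrow for 24 of the 30 genes, where 18.9% of all tested genes showed that order. Dnmt3a f/+ leukemia 1 had the lowest sum among the leukemias and still lay above all pre-leukemic marrows. Without it 31 of 32 tested genes rose, and without the Dnmt3a f/f leukemia 2 of 30 rose.

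Lactoferrin (Ltf, chr9:110921796-110945270, plus strand, mm9), an iron-binding protein of secondary granules, had 335, 2476 and 2343 CPM in the leukemias, against 30.5, 57.5 and 15.3 CPM in the pre-leukemic marrows (log2 fold change 5.65, SE 0.93, adjusted p = 0.0325). The secondary granule protein gene Ngp had 523, 3374 and 2322 CPM in the leukemias, against 61.3, 87.9 and 32.8 CPM in the pre-leukemic marrows (log2 fold change 5.10, SE 0.79, adjusted p = 0.0289). Camp, which encodes the antimicrobial cathelicidin, had 283, 1453 and 957.5 CPM in the leukemias, against 29.4, 35.6 and 17.1 CPM in the pre-leukemic marrows (log2 fold change 5.04, SE 0.68, adjusted p = 0.0275). In these genes Dnmt3a f/+ leukemia 1 was intermediate, below the other leukemias and above every pre-leukemic marrow. S100a8 and S100a9, the subunits of calprotectin, rose by log2 4.16 and 4.29 (SE 0.60 and 0.61, adjusted p = 0.0279 for both). S100a9 had 468, 1687 and 1151 CPM in the leukemias, against 51.0, 87.1 and 31.7 CPM in the pre-leukemic marrows. The integrin chain gene Itgb2l had 17.1, 456 and 253 CPM in the leukemias, against 1.104, 3.098 and 1.037 CPM in the pre-leukemic marrows (log2 fold change 7.23, SE 1.31, adjusted p = 0.0351). The smallest adjusted p of the list was that of Pglyrp1, a peptidoglycan recognition protein (log2 fold change 3.65, SE 0.42, adjusted p = 0.0237). Anxa1, an annexin that limits neutrophil recruitment, had 447, 1325 and 1071 CPM in the leukemias, against 110, 102 and 93.0 CPM in the pre-leukemic marrows. Its pre-leukemic values were close together, and it rose by log2 3.22 (SE 0.42, adjusted p = 0.0263). Il1r2, a decoy receptor for interleukin 1, rose by log2 5.71 (SE 0.73, adjusted p = 0.0262).

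**Figure D3:**
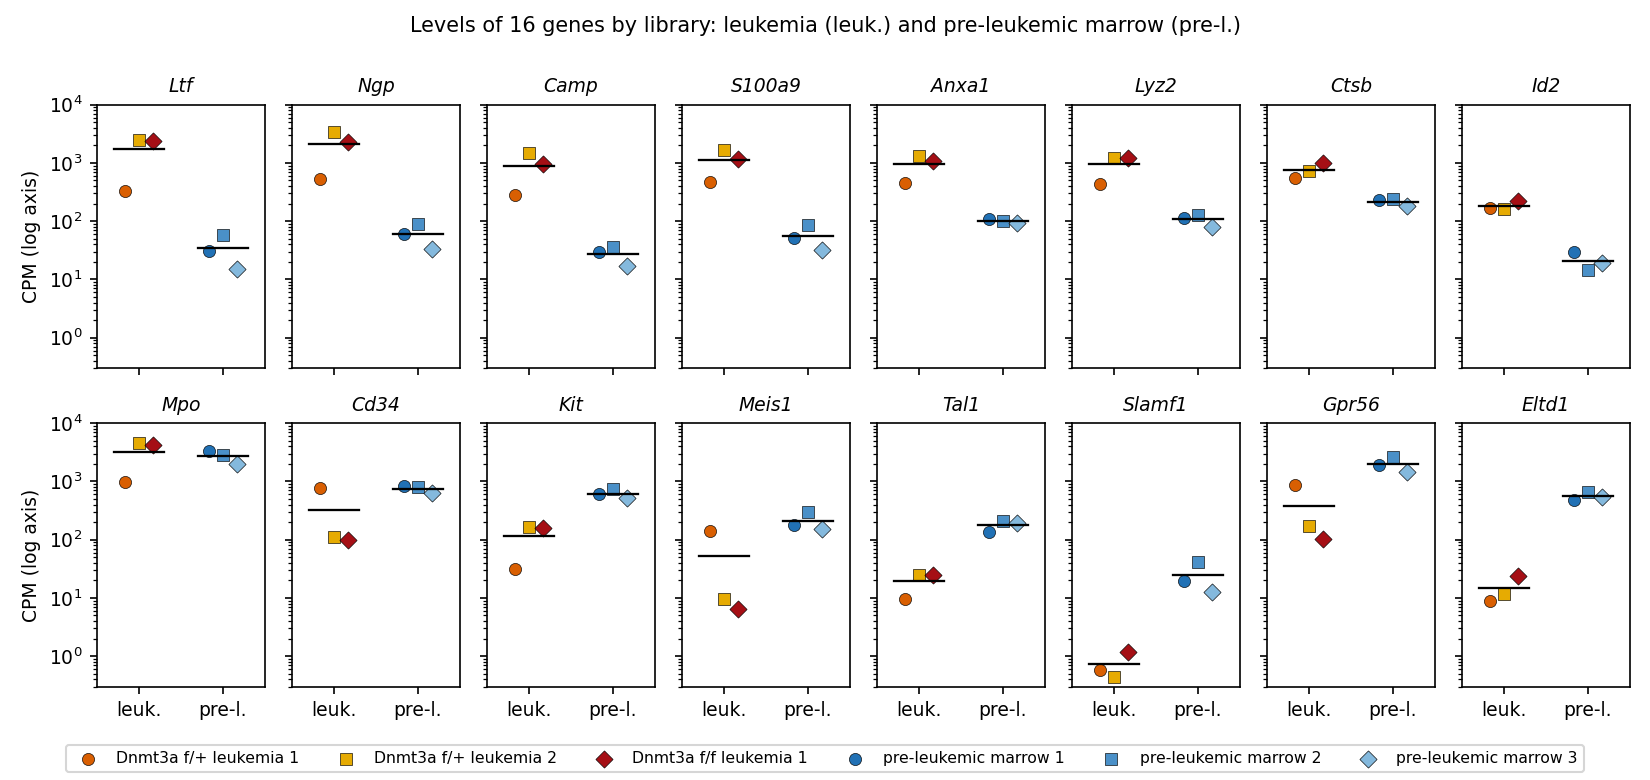
Points are the CPM of 16 genes (log axis) in each leukemia (left) and each pre-leukemic marrow (right), and bars are group means. Ltf, Ngp, Camp, S100a9, Anxa1, Lyz2, Ctsb and Id2 are higher in all 3 leukemias and Kit, Tal1, Slamf1, Gpr56 and Eltd1 lower, while Cd34 and Meis1 are high in Dnmt3a f/+ leukemia 1 as in the pre-leukemic marrows.

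Promoters of the list were read from RefSeq (GRCm38.p6; 250 bases before to 50 bases after the start), because its genes moved together and C/EBP factors are known regulators of granule genes. The letters TTGCNNAA, a C/EBP core, were searched on both strands. They were found in 9 of the 20 promoters that matched the 23 genes that rose (45.0%), in 0 of the 8 promoters of the other 10 genes of the list, and in 3547 of all 32851 promoters in the table (10.8%). The 2 genes that rose with the smallest adjusted p among those with a match are shown, with the matching bases in capitals and the strand of the gene. Anxa1 lies at chr19:20390622-20390921 on the minus strand, and S100a9 at chr3:90695672-90695971 on the minus strand, both in GRCm38.p6.
Anxa1: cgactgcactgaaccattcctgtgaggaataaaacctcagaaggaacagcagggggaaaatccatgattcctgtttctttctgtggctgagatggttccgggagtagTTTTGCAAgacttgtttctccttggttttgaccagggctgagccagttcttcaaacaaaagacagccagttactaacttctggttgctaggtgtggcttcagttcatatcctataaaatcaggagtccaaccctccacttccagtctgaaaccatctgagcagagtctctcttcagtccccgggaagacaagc
S100a9: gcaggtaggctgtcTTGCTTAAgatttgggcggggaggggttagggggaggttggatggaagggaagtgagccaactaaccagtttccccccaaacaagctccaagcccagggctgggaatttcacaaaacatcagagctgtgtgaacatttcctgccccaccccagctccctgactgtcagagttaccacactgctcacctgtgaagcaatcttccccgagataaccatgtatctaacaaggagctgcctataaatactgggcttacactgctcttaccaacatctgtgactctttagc
Each has 1 match, which starts 143 bases before the start site in Anxa1 and 236 bases before it in S100a9. A match describes the letters and not binding.

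The list of primary granule genes had fewer calls. Of 19 tested, 3 rose and none fell, and the median log2 fold change was 1.08. Mpo, myeloperoxidase, had 982.5, 4520 and 4157 CPM in the leukemias, against 3303, 2836 and 1976 CPM in the pre-leukemic marrows, and no difference passed the test (log2 fold change 0.25, SE 0.55, adjusted p = 0.8). Elane, neutrophil elastase, had 165, 1556 and 1186 CPM in the leukemias, against 373, 453 and 192 CPM in the pre-leukemic marrows (adjusted p = 0.228). For both genes Dnmt3a f/+ leukemia 1 was below every pre-leukemic marrow and the other leukemias were above all of them. The rises were Lyz2, the lysozyme of granulocytes and macrophages (log2 fold change 3.15, SE 0.45, adjusted p = 0.0279), Fcnb, a pathogen-binding ficolin (log2 5.14, adjusted p = 0.0377), and Ms4a3, a membrane protein of granulocyte and monocyte progenitors (log2 2.17, adjusted p = 0.0461). Lyz2 has a close paralog, Lyz1, and how reads were split between them is not given. Without Dnmt3a f/+ leukemia 1, 13 of 20 tested genes rose, and without the Dnmt3a f/f leukemia none did.

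Of 33 tested genes of monocytes and macrophages, 6 rose and 1 fell, with a median log2 fold change of 2.47, and 31 had a fold change above 0. The summed level was 2798, 7965 and 12110 CPM in the leukemias, against 2954, 1581 and 1450 CPM in the pre-leukemic marrows. That sum lay inside the pre-leukemic range in Dnmt3a f/+ leukemia 1. Ctsb, a lysosomal protease, had 542, 734 and 993 CPM in the leukemias, against 234, 236 and 179 CPM in the pre-leukemic marrows (log2 fold change 1.81, SE 0.27, adjusted p = 0.0284). Emr1, the F4/80 antigen of macrophages, rose by log2 4.75 (SE 0.78, adjusted p = 0.0325), Ctss, a second lysosomal protease, by log2 2.76 (adjusted p = 0.0383) and Klf4, a transcription factor of monocytes, by log2 4.31 (adjusted p = 0.0416). The fall was Cd163, the macrophage receptor for haptoglobin-bound hemoglobin, with 3.19, 3.15 and 3.71 CPM in the leukemias, against 16.7, 10.4 and 12.1 CPM in the pre-leukemic marrows (log2 fold change -1.96, adjusted p = 0.037). Csf1r, the receptor for macrophage colony-stimulating factor, had 32.6, 152 and 360.5 CPM in the leukemias, against 134, 37.2 and 52.4 CPM in the pre-leukemic marrows, which overlapped (adjusted p = 0.351). With Dnmt3a f/+ leukemia 1 left out, 25 of 33 genes rose and 1 fell, and without the Dnmt3a f/f leukemia none passed.

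Among 29 tested myeloid transcription factors, 4 rose and none fell. Id2, an inhibitor of basic helix-loop-helix factors, had 170, 160 and 220 CPM in the leukemias, against 29.2, 14.3 and 18.9 CPM in the pre-leukemic marrows. The leukemias were close together for Id2, and it rose by log2 3.14 (SE 0.32, adjusted p = 0.0228). Cebpb, a C/EBP factor of stress granulopoiesis, had 29.2, 88.4 and 90.8 CPM in the leukemias, against 9.01, 7.74 and 9.05 CPM in the pre-leukemic marrows (log2 fold change 3.01, SE 0.46, adjusted p = 0.0288). Irf5, a factor of inflammatory macrophages, rose by log2 2.67 (adjusted p = 0.033), and the fourth rise was Klf4. Cebpa, the C/EBP factor of early granulocyte commitment, had 47.5, 230 and 292 CPM in the leukemias, against 96.4, 62.0 and 104 CPM in the pre-leukemic marrows (adjusted p = 0.263). Sfpi1, which encodes PU.1, had 112, 280 and 354 CPM in the leukemias, against 126, 95.3 and 104 CPM in the pre-leukemic marrows (adjusted p = 0.107). For Cebpa, Dnmt3a f/+ leukemia 1 was below all pre-leukemic marrows; for Sfpi1 it lay among them. In the fit that omits Dnmt3a f/+ leukemia 1, 13 of 30 tested factors rose and 6 fell, and without the Dnmt3a f/f leukemia 1 rose.

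Of 29 tested genes of stem and progenitor cells, 4 fell and none rose, with a median log2 fold change of -1.65. The summed level was 6238, 1511 and 1579 CPM in the leukemias, against 7733, 10260 and 6025 CPM in the pre-leukemic marrows, so Dnmt3a f/+ leukemia 1 lay within the pre-leukemic range and the other leukemias below it. Eltd1, an adhesion receptor of endothelium (chr3:151100846-151208045, plus strand, mm9), had 8.86, 11.5 and 23.8 CPM in the leukemias, against 482, 657.5 and 546 CPM in the pre-leukemic marrows. All leukemias were low, Dnmt3a f/+ leukemia 1 lowest of them, and Eltd1 was lower by the test (log2 fold change -5.25, SE 0.45, adjusted p = 0.0171). Tal1, a transcription factor of stem cells and of the erythroid and megakaryocyte lineages, had 9.45, 24.5 and 25.2 CPM in the leukemias, against 137, 208 and 194 CPM in the pre-leukemic marrows (log2 fold change -3.19, SE 0.42, adjusted p = 0.0268). Slamf1, the CD150 antigen of long-term stem cells, had 0.586, 0.439 and 1.18 CPM in the leukemias, against 19.3, 40.8 and 12.7 CPM in the pre-leukemic marrows (log2 fold change -5.01, SE 0.66, adjusted p = 0.0268). Those 3 genes were low in all leukemias. Cd34 and Meis1 were instead low in Dnmt3a f/+ leukemia 2 and the Dnmt3a f/f leukemia and near the pre-leukemic levels in Dnmt3a f/+ leukemia 1. Cd34, a surface antigen of progenitors, had 759, 113 and 99.8 CPM in the leukemias, against 825, 806 and 622 CPM in the pre-leukemic marrows (adjusted p = 0.338). Meis1, a HOX cofactor, had 141, 9.52 and 6.36 CPM in the leukemias, against 176, 298 and 154 CPM in the pre-leukemic marrows (adjusted p = 0.282). Gpr56, an adhesion receptor of stem cells, had 856, 172 and 105 CPM in the leukemias, against 1904, 2598 and 1438 CPM in the pre-leukemic marrows (adjusted p = 0.102). When Dnmt3a f/+ leukemia 1 was dropped, 25 of the 29 genes fell and 1 rose, where 14.8% of all genes tested in that fit fell. Without the Dnmt3a f/f leukemia 3 fell.

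**Figure D4:**
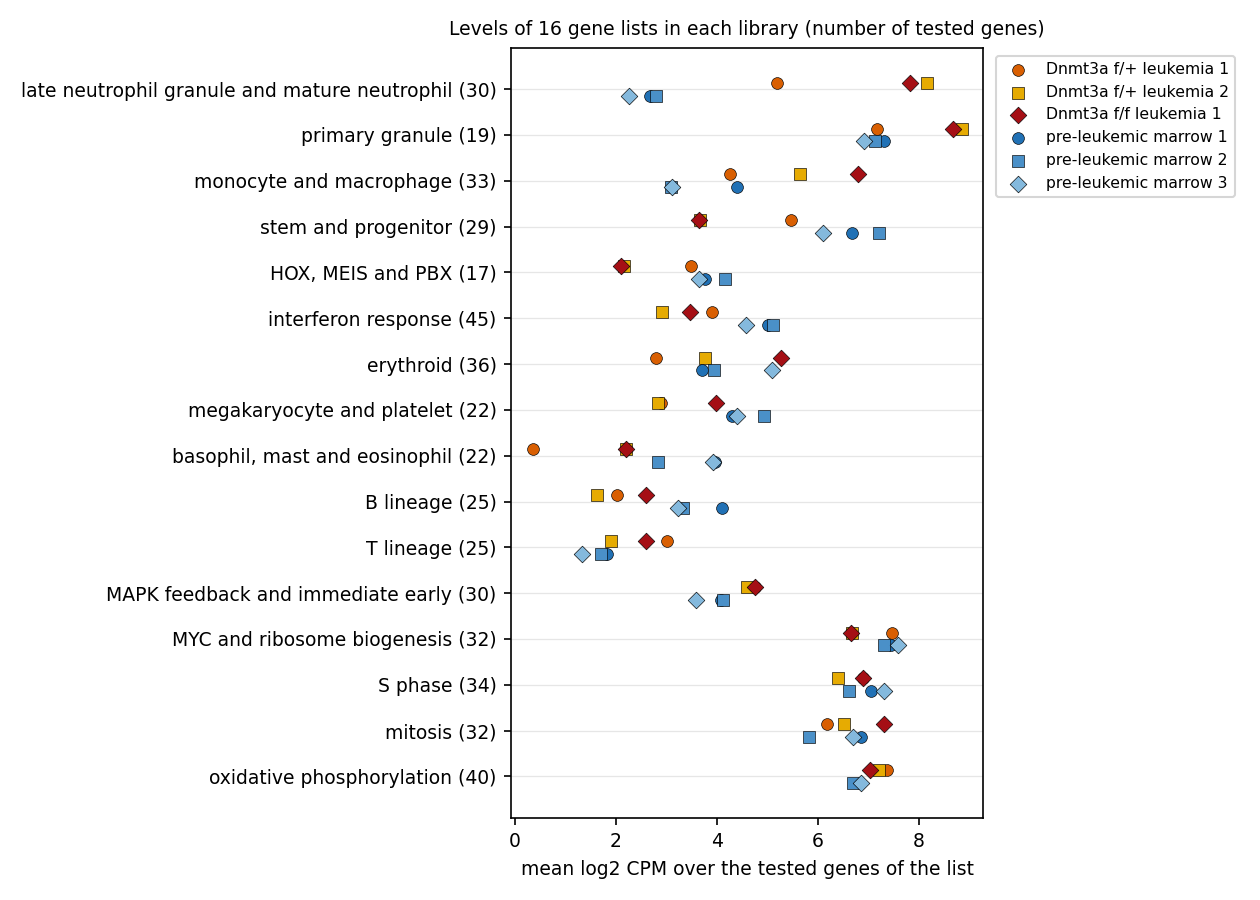
Points are the mean log2 CPM of the tested genes of 16 lists, for the leukemias (upper points of each line) and the pre-leukemic marrows (lower points); the number of tested genes stands after the list's name. The late neutrophil list is at 5.18, 8.15 and 7.83 in the leukemias and at 2.25 to 2.79 in the pre-leukemic marrows, and the stem and progenitor list at 5.46, 3.67 and 3.65 in the leukemias and at 6.09 to 7.21 in the pre-leukemic marrows.

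The 17 tested genes of the HOX, MEIS and PBX families gave no call by edgeR (4 had an unadjusted p below 0.05), while DESeq2 called 3 falls among them. Hoxa9 had 25.8, 9.15 and 8.10 CPM in the leukemias, against 23.0, 21.9 and 20.1 CPM in the pre-leukemic marrows (log2 fold change -0.59, adjusted p = 0.453). Its level in Dnmt3a f/+ leukemia 1 was the highest of the 6 libraries. Without Dnmt3a f/+ leukemia 1, 10 of 21 tested genes of these families fell. Hmga2, a chromatin protein of fetal stem cells that was among the largest falls over all genes, had 0.195, 0.879 and 1.46 CPM in the leukemias, against 43.8, 31.8 and 29.3 CPM in the pre-leukemic marrows (log2 fold change -5.34, SE 0.69, adjusted p = 0.0262). It was near 0 in every leukemia.

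Of 45 tested genes of the interferon response, 9 fell and none rose, with a median log2 fold change of -1.12, and all leukemias were below all pre-leukemic marrows for 27 of them, where 17.5% of all tested genes showed that order. Oasl1, an interferon-induced oligoadenylate synthetase-like protein, had 2.41, 3.00 and 2.81 CPM in the leukemias, against 13.6, 12.8 and 13.5 CPM in the pre-leukemic marrows. Values within each group were close together, and Oasl1 was lower by the test (log2 fold change -2.28, SE 0.34, adjusted p = 0.0282). Ifih1, a sensor of double-stranded RNA, had 19.0, 14.6 and 20.9 CPM in the leukemias, against 57.0, 78.6 and 57.4 CPM in the pre-leukemic marrows (log2 fold change -1.83, SE 0.25, adjusted p = 0.0279). Ifit1, an RNA-binding restriction factor, had 0.847, 0.22 and 0.225 CPM in the leukemias, against 11.04, 14.33 and 5.85 CPM in the pre-leukemic marrows (log2 fold change -4.56, SE 0.75, adjusted p = 0.0326). Usp18, a protease that removes ISG15 and dampens receptor signalling, fell (log2 fold change -3.75, SE 0.53, adjusted p = 0.0279). Psmb8, an immunoproteasome subunit with no call, had 392, 210 and 205 CPM in the leukemias, against 322, 293 and 267 CPM in the pre-leukemic marrows (adjusted p = 0.806). With Dnmt3a f/+ leukemia 1 left out, 27 of the 45 genes fell, and without the Dnmt3a f/f leukemia 1 did.

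The interferon-stimulated response element was searched in the same RefSeq promoters as GAAANNGAAA on both strands. It was found in 4 of 7 promoters that matched the 9 genes that fell (57.1%), in 16 of 32 promoters of the other 36 genes of the list, and in 1131 of all 32851 promoters (3.44%). The genes that fell and the other genes of the list thus held it in similar shares. The promoters of Ifih1 (chr2:62646206-62646505, minus strand) and Ifit1 (chr19:34640639-34640938, plus strand), both in GRCm38.p6, are shown as the 2 genes that fell with the smallest adjusted p among those with a match, with matches in capitals.
Ifih1: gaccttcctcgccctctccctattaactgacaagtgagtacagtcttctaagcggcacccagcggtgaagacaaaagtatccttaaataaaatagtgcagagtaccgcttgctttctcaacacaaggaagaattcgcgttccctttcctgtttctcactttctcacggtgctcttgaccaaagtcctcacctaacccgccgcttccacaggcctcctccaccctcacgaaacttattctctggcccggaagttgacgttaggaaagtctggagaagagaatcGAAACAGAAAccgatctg
Ifit1: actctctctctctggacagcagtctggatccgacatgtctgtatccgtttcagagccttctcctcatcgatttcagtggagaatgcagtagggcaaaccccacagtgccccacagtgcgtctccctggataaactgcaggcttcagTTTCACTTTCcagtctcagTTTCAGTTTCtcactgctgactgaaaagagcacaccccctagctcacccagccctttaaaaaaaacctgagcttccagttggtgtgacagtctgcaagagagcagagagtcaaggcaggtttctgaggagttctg
Ifit1 has 2 matches, the first of them 104 bases before the start site, and Ifih1 has 1 match, 32 bases after it.

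The list of red cell genes had calls both ways. Of 36 tested, 3 rose and 1 fell, where 3.93% of all tested genes rose and 2.46% fell. The median log2 fold change was -0.21. The rises were genes of late erythroid cells. Slc4a1 (chr11:102210134-102226595, minus strand, mm9) had 7.03, 52.1 and 347 CPM in the leukemias, against 0.368, 0.581 and 0.788 CPM in the pre-leukemic marrows (log2 fold change 7.70, SE 1.59, adjusted p = 0.043). Alas2 had 23.8, 39.4 and 121 CPM in the leukemias, against 0.184, 0.774 and 0.871 CPM in the pre-leukemic marrows (log2 fold change 6.50, SE 0.86, adjusted p = 0.0268). The alpha globin gene Hba-a1, which shares reads with its near-identical copy, had 15.6, 21.3 and 36.5 CPM in the leukemias, against 2.76, 3.29 and 3.61 CPM in the pre-leukemic marrows (adjusted p = 0.0279). Within the leukemias the Dnmt3a f/f library was the highest for all 3 genes. The fall was Tal1, given above. The progenitor genes Gata1, Klf1 and Epor had fold changes below 0 and did not pass the test, while 15 of the 36 tested genes of the list had fold changes above 0. Gata1, the main erythroid transcription factor, had 0.13, 2.34 and 8.72 CPM in the leukemias, against 18.6, 26.5 and 76.4 CPM in the pre-leukemic marrows (log2 fold change -3.44, SE 1.21, adjusted p = 0.115). Klf1, its partner at globin genes, had 0.456, 1.76 and 5.96 CPM in the leukemias, against 9.94, 12.4 and 51.5 CPM in the pre-leukemic marrows (adjusted p = 0.102). Epor, the erythropoietin receptor, had 0.13, 0.659 and 4.56 CPM in the leukemias, against 6.62, 7.36 and 24.3 CPM in the pre-leukemic marrows (adjusted p = 0.167). All leukemias were below all pre-leukemic marrows for these 3 genes. That order held for 8 of the 36 tested genes of the list, these 3 included, and for 17.5% of all tested genes. In the fit that omits Dnmt3a f/+ leukemia 1, 7 of 37 tested genes rose and 4 fell, where 18% of all genes rose and 14.8% fell, and without the Dnmt3a f/f leukemia 2 rose and 1 fell.

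Of 22 tested genes of megakaryocytes and platelets, 1 rose and 3 fell, with a median log2 fold change of -1.22. The falls included Gfi1b, a repressor needed for megakaryocyte and erythroid development (log2 fold change -2.90, SE 0.51, adjusted p = 0.0346), and Rab27b, which serves platelet granule release (log2 fold change -2.54, adjusted p = 0.046). The rise was Thbs1, thrombospondin, a protein of platelets that monocytes and neutrophils also make. It had 3.91, 376 and 566 CPM in the leukemias, against 0.92, 2.13 and 1.08 CPM in the pre-leukemic marrows (log2 fold change 7.91, SE 1.73, adjusted p = 0.0465). For Thbs1, Dnmt3a f/+ leukemia 1 was close to the pre-leukemic values and the other leukemias far above them. Without Dnmt3a f/+ leukemia 1, 3 of 24 tested genes rose and 9 fell, and without the Dnmt3a f/f leukemia none rose and 3 fell. Of 22 tested genes of basophils, mast cells and eosinophils, 4 fell and none rose, with a median log2 fold change of -1.77. Epx, eosinophil peroxidase, had 0.13, 0.366 and 1.63 CPM in the leukemias, against 28.3, 13.2 and 44.8 CPM in the pre-leukemic marrows (log2 fold change -5.30, SE 0.96, adjusted p = 0.0351). Il5ra, the interleukin 5 receptor chain of eosinophils, fell (log2 fold change -4.49, SE 0.61, adjusted p = 0.0279). Mcpt4, a mast cell protease, and Ear1, an eosinophil ribonuclease, also fell (adjusted p = 0.0467 and 0.0464), but both belong to families of close paralogs and are uncertain. When Dnmt3a f/+ leukemia 1 was dropped, 1 of 23 tested genes of this list rose and 8 fell, and without the Dnmt3a f/f leukemia 1 fell.

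Over all tested genes 3.93% rose and 2.46% fell, and the calls in the lymphoid and stromal lists were as follows. Of 25 tested B lineage genes 1 rose and 1 fell. The rise was Xbp1, a transcription factor of secretory cells and not of B cells alone (log2 fold change 1.29, adjusted p = 0.033). The fall was Bach2, a repressor of B cells and of progenitors (log2 fold change -2.70, adjusted p = 0.043). Of 25 tested T lineage genes only Cd3d rose, at 3.45, 2.12 and 4.50 CPM in the leukemias, against 0.184, 0 and 0 CPM in the pre-leukemic marrows (adjusted p = 0.0375). These are low levels, and the summed level of the T list was 616.5 to 721 CPM in the leukemias, against 593 to 829 CPM in the pre-leukemic marrows. Of 12 tested NK and cytotoxic genes only Ccl5, a chemokine that monocytes also make, rose (log2 fold change 2.59, adjusted p = 0.0369). Of 27 tested genes of stroma, bone and endothelium 3 rose and 1 fell, with a median log2 fold change of 3.04 over the list (0.47 without the Dnmt3a f/f leukemia), against 0.06 over all tested genes. The summed level of this list was 687.5, 449 and 1184 CPM in the leukemias, against 549, 655 and 424 CPM in the pre-leukemic marrows, so the ranges overlapped and the Dnmt3a f/f leukemia was highest. Spp1, osteopontin, which macrophages also make, had 25.3, 46.7 and 73.6 CPM in the leukemias, against 2.76, 3.87 and 1.70 CPM in the pre-leukemic marrows (log2 fold change 4.17, SE 0.54, adjusted p = 0.0262). Col1a1, a collagen of bone, and Mgp, a matrix protein, rose at low levels (at most 18.8 and 43.0 CPM), and Pdgfrb fell. Omitting Dnmt3a f/+ leukemia 1, the rises and falls were 3 and 8 of 31 tested genes in the B list, 7 and 4 of 25 in the T list, 3 and 1 of 12 in the NK list, and 14 and 5 of 29 in the stromal list, where 18% of all genes rose and 14.8% fell. Without the Dnmt3a f/f leukemia the stromal list had 1 rise, and the B, T and NK lists had no call.

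Of 30 tested genes of MAP kinase feedback and the immediate early response, 7 rose and 1 fell. Klf6, a zinc finger factor, had 184, 255 and 264 CPM in the leukemias, against 47.6, 63.1 and 46.4 CPM in the pre-leukemic marrows (log2 fold change 2.16, SE 0.23, adjusted p = 0.0237). Junb, an AP-1 subunit, had 80.6, 86.3 and 112 CPM in the leukemias, against 34.6, 36.8 and 36.8 CPM in the pre-leukemic marrows (log2 fold change 1.37, SE 0.20, adjusted p = 0.0279). Ier2, an early response gene, rose by log2 1.47 (SE 0.22, adjusted p = 0.0279). These 3 were high in Dnmt3a f/+ leukemia 1 as in the other leukemias. The fall was Myc, a driver of growth, with 214, 195 and 149 CPM in the leukemias, against 492, 459 and 517.5 CPM in the pre-leukemic marrows (log2 fold change -1.40, SE 0.20, adjusted p = 0.0279). Without Dnmt3a f/+ leukemia 1, 12 of 31 tested genes rose and 7 fell, and without the Dnmt3a f/f leukemia 3 rose and 1 fell.

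Of 32 tested genes of MYC and ribosome biogenesis, 3 fell and none rose. Cad, the enzyme that starts pyrimidine synthesis, had 152, 99.8 and 167 CPM in the leukemias, against 397, 337 and 471 CPM in the pre-leukemic marrows (log2 fold change -1.53, SE 0.25, adjusted p = 0.0326). Polr1b, a subunit of RNA polymerase I, fell (log2 fold change -1.18, SE 0.22, adjusted p = 0.0357), and the remaining fall was Myc. The abundant nucleolar genes Ncl and Npm1 had no call (adjusted p = 0.243 and 0.761). With Dnmt3a f/+ leukemia 1 left out, 17 of the 32 genes fell, and without the Dnmt3a f/f leukemia 1 did. Among 28 tested targets of FLT3 and STAT5, 1 rose and 3 fell. Stat5a, the transducer itself, had 73.3, 75.6 and 76.7 CPM in the leukemias, against 159, 207 and 197 CPM in the pre-leukemic marrows. Its leukemia values were nearly equal, and it was lower by the test (log2 fold change -1.32, SE 0.18, adjusted p = 0.0275). Ccnd1, cyclin D1, had 5.54, 8.27 and 18.3 CPM in the leukemias, against 90.3, 110 and 76.7 CPM in the pre-leukemic marrows (log2 fold change -3.10, SE 0.47, adjusted p = 0.0284), and the remaining fall was Myc. The rise was Mcl1, a BCL2-family survival factor (log2 fold change 1.23, SE 0.26, adjusted p = 0.0457). The STAT5-induced genes Cish and Socs2 were far apart among the leukemias. Cish, a feedback inhibitor, had 605, 27.2 and 13.4 CPM in the leukemias, against 35.1, 49.4 and 15.5 CPM in the pre-leukemic marrows (adjusted p = 0.241). Socs2, a related inhibitor, had 664, 43.6 and 24.4 CPM in the leukemias, against 151, 124 and 63.7 CPM in the pre-leukemic marrows (adjusted p = 0.559). Dnmt3a f/+ leukemia 1 was far above every other library for both genes. Pim1, a STAT5-induced kinase, had 381, 189 and 228 CPM in the leukemias, against 192, 220.5 and 174 CPM in the pre-leukemic marrows (adjusted p = 0.342). In the fit that omits Dnmt3a f/+ leukemia 1, 9 of the 28 targets rose and 8 fell, and without the Dnmt3a f/f leukemia 2 fell.

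No gene of S phase (34 tested) or mitosis (32 tested) passed edgeR's test in the pooled comparison, while 6 and 0 of them had an unadjusted p below 0.05. The proliferation marker Mki67 had 234, 415 and 1403 CPM in the leukemias, against 728, 364 and 718.5 CPM in the pre-leukemic marrows (adjusted p = 0.882), with the Dnmt3a f/f leukemia highest and Dnmt3a f/+ leukemia 1 lowest of all 6 libraries. DESeq2 called 4 falls among the S phase genes and none among the mitosis genes. Without Dnmt3a f/+ leukemia 1, 7 of the 34 S phase genes fell, where 14.8% of all genes did. Of 40 tested genes of oxidative phosphorylation 4 rose and none fell, with a median log2 fold change of 0.42, and all leukemias were above all pre-leukemic marrows for 24 of them, where 18.9% of all tested genes showed that order. Uqcrq, a subunit of complex III, had 131, 162 and 109 CPM in the leukemias, against 60.9, 51.3 and 60.5 CPM in the pre-leukemic marrows (log2 fold change 1.22, SE 0.21, adjusted p = 0.033). The others were Ndufb8 of complex I, Sdhd of complex II and Uqcrfs1 of complex III (log2 fold change 1.49, 0.94 and 0.92; adjusted p = 0.0351, 0.0431 and 0.0385), and Sdhd lost its call with upper-quartile scaling. For all 4 genes Dnmt3a f/+ leukemia 1 lay above the Dnmt3a f/f leukemia, and for Uqcrfs1 alone it was the highest library. Without Dnmt3a f/+ leukemia 1, 7 of 40 genes rose, where 18% of all genes did, and without the Dnmt3a f/f leukemia 2 rose. Of 25 tested glycolysis genes none rose and only Hk1, a hexokinase, fell (log2 fold change -1.17, SE 0.22, adjusted p = 0.0369), while DESeq2 called 14 rises and 1 fall. Of 26 glycolysis genes tested without Dnmt3a f/+ leukemia 1, 15 rose and 2 fell, and without the Dnmt3a f/f leukemia none passed.

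Lists of chemokine, receptor, sensor and survival genes held 1 to 5 calls each, where 6.39% of all tested genes were called. Ccl6, a chemokine of myeloid cells, had 33.0, 307 and 335 CPM in the leukemias, against 5.70, 3.29 and 2.36 CPM in the pre-leukemic marrows (log2 fold change 5.95, SE 0.96, adjusted p = 0.0317). The chemokine receptor Ccr1 rose by log2 5.01 (SE 1.05, adjusted p = 0.0439), which with Ccl5 made 3 rises and no fall among 20 tested chemokine genes. Cxcr4, the marrow retention receptor, had 162, 574.5 and 527 CPM in the leukemias, against 152.5, 119 and 120 CPM in the pre-leukemic marrows, and did not pass (adjusted p = 0.0678). Among 27 cytokine receptors of the JAK-STAT group, 3 rose and 2 fell. Il10ra, an interleukin 10 receptor chain, had 104.5, 111 and 113 CPM in the leukemias, against 48.4, 39.1 and 21.6 CPM in the pre-leukemic marrows (log2 fold change 1.60, adjusted p = 0.0385), and Lifr and Il13ra1 rose by log2 3.78 and 4.37 (adjusted p = 0.033 and 0.0402). Il5ra was among the falls. Of 25 tested Toll-like and NOD-like sensor genes, Tlr13, Pycard and Cd14 rose (log2 fold change 6.24, 1.69 and 5.05; adjusted p = 0.0357, 0.0456 and 0.0457). Of 16 tested BCL2-family genes Mcl1 and the death-promoting Bmf rose (Bmf by log2 3.71, adjusted p = 0.0455). Of 25 tested p53 targets Ddit4, an inhibitor of mTORC1, rose by log2 2.77 (SE 0.33, adjusted p = 0.0237) and Perp, a membrane protein, by log2 2.5 (adjusted p = 0.0383). Of 23 tested genes of cholesterol synthesis Mvd and Sc5d rose (log2 fold change 1.85 and 1.24; adjusted p = 0.0307 and 0.0447). Among 27 tested integrins and selectins Itgb2l and, at an adjusted p of 0.05 after rounding that was lost with median-ratio scaling, Itgam rose, and among 21 tested genes of dendritic cells and MHC class II H2-DMb1 did (log2 fold change 1.07, adjusted p = 0.0341). Omitting Dnmt3a f/+ leukemia 1, the rises and falls were 7 and 0 of 20 tested genes for the chemokine list, 9 and 4 of 27 for the cytokine receptors, 12 and 2 of 25 for the sensors, 6 and 2 of 17 for the BCL2 family, 9 and 4 of 25 for the p53 targets, 5 and 0 of 23 for cholesterol synthesis, 8 and 5 of 29 for integrins and selectins, and 2 and 9 of 22 for dendritic cells and MHC class II. Over all genes of that fit 18% rose and 14.8% fell. Without the Dnmt3a f/f leukemia 2 p53 targets rose and 1 gene of integrins and selectins fell, and none of the other lists of this paragraph had a call.

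The largest rises over all genes had almost no reads in the pre-leukemic marrows. Ms4a8a, a membrane protein of the MS4A family, had 9.38, 26.4 and 12.9 CPM in the leukemias and was at 0 in all pre-leukemic marrows. With the leukemias pooled, its level was at least 181-fold higher, taking 3 counts in the whole group as the floor. Single leukemias can lie below such a pooled bound. Arhgef37, Scrg1 and Cyr61, a matricellular protein, were also at 0 in the pre-leukemic marrows. Their pooled levels were at least 188-fold, 64.0-fold and 62.3-fold higher in the leukemias. Arhgef37 had 1.82, 14.4 and 30.1 CPM in the leukemias, Scrg1 1.17, 9.885 and 5.96 CPM, and Cyr61 2.08, 3.95 and 9.34 CPM. Pira7, Stfa1 and Ear11 were at 0 in the pre-leukemic marrows as well, but belong to families with close paralogs and are uncertain. Olfm4, a secreted protein of a neutrophil subset, had 1.56, 97.7 and 28.6 CPM in the leukemias, against 0.184, 0 and 0.0415 CPM in the pre-leukemic marrows, a ratio of 692 (95% exact counting interval 191 to 5720). Fpr1, the receptor for formylated bacterial peptides, had 2.54, 41.0 and 27.4 CPM in the leukemias, with 1 count in all pre-leukemic marrows together. For these genes Dnmt3a f/+ leukemia 1 was the lowest leukemia. Sema3a, a secreted guidance protein, had the opposite order, with 71.5 CPM in Dnmt3a f/+ leukemia 1, 1.76 CPM in Dnmt3a f/+ leukemia 2 and 4.89 CPM in the Dnmt3a f/f leukemia, against at most 0.0415 CPM in the pre-leukemic marrows.

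The largest falls included genes that are not markers of one blood lineage in the lists used here. Slc6a15, an amino acid transporter, had 0.0651, 0.0732 and 0.0563 CPM in the leukemias, against 16.9, 26.9 and 6.60 CPM in the pre-leukemic marrows, a ratio of 175 (95% exact counting interval 59.5 to 854) in favour of the pre-leukemic marrows. Lhcgr, the receptor for luteinizing hormone, and Ndn, an imprinted growth suppressor, had 2 counts each in all leukemias together, against 8.279, 17.04 and 1.328 CPM for Lhcgr and 9.57, 13.6 and 0.623 CPM for Ndn in the pre-leukemic marrows. Pre-leukemic marrow 3 was the lowest of its group for all 3 genes. Nkx2-3, a homeobox factor, had at most 0.366 CPM in the leukemias, against 15.8, 37.0 and 4.44 CPM in the pre-leukemic marrows (log2 fold change -7.28, SE 1.45, adjusted p = 0.0402). Mc5r, a melanocortin receptor, had 0.261, 0.22 and 0.844 CPM in the leukemias, against 20.79, 18.01 and 20.04 CPM in the pre-leukemic marrows, and its pre-leukemic values were the closest together of these genes (log2 fold change -5.42, SE 0.62, adjusted p = 0.0237). Efcc1, Arpp21, Pkia and Trpc6 also fell (log2 fold change -6.67, -5.50, -5.73 and -5.52; adjusted p = 0.0228, 0.0237, 0.033 and 0.0458).

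The design also holds the Dnmt3a f/f leukemia against the 2 Dnmt3a f/+ leukemias, with 1 library on one side. No gene of 14133 passed edgeR's test (0.0% called), while 1354 had an unadjusted p below 0.05 and DESeq2 called 176. Against Dnmt3a f/+ leukemia 1 alone the count was 2738, and against Dnmt3a f/+ leukemia 2 alone it was 0, so the result turned on which Dnmt3a f/+ leukemia was used. Both of these fits assume that the lone libraries vary like the pre-leukemic marrows. Dnmt3a itself did not differ beyond the spread (log2 fold change -0.47, SE 0.24, adjusted p = 0.506). Slc4a1, Alas2 and Mki67 were higher in the Dnmt3a f/f leukemia, by log2 3.53, 1.92 and 2.09 (SE 0.99, 0.56 and 0.53), and none passed (adjusted p = 0.498 for each).

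The genes of whole chromosomes were also set against the mean of the pre-leukemic marrows, using genes that averaged 10 CPM or more. In the Dnmt3a f/f leukemia the 710 genes of chromosome 7 had a median log2 difference of 0.34, and 67.6% of them lay above 0. On its other 18 autosomes the median was between -0.11 and 0.08. In Dnmt3a f/+ leukemias 1 and 2 the chromosome 7 medians were 0.05 and 0.11, inside or next to the ranges of their other autosomes (-0.04 to 0.16 and -0.07 to 0.10). Windows of 30 Mb along chromosome 7 had medians of 0.24 to 0.38 in the Dnmt3a f/f leukemia, except the last, which held 17 genes and had -0.30. In Dnmt3a f/+ leukemias 1 and 2 the window of 30 to 60 Mb had 0.17 and 0.25. That of 120 to 150 Mb had 0.15 and 0.18, and the last window -0.16 and -0.44. The remaining windows of these leukemias had medians of -0.07 to 0.10. Expression of neighbouring genes is not a measure of DNA copies, and no test was made. Among genes of the Y chromosome, Kdm5d, a histone demethylase (chrY:234231-280254, plus strand, mm9), had 0.521 CPM in Dnmt3a f/+ leukemia 1, 36.2 CPM in Dnmt3a f/+ leukemia 2 and 27.9 CPM in the Dnmt3a f/f leukemia, against 39.0, 42.4 and 47.5 CPM in the pre-leukemic marrows. Its Y-linked neighbours Uty and Ddx3y had 36.3 and 210 CPM in Dnmt3a f/+ leukemia 1 and were present in all 6 libraries. Ddx3y, an RNA helicase, had 210, 155 and 151 CPM in the leukemias, against 86.5, 85.8 and 99.4 CPM in the pre-leukemic marrows (log2 fold change 0.92, SE 0.20, adjusted p = 0.0459), a call that upper-quartile scaling removed. Kdm5d and Uty were looked at after their values were seen.

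**Figure D5:**
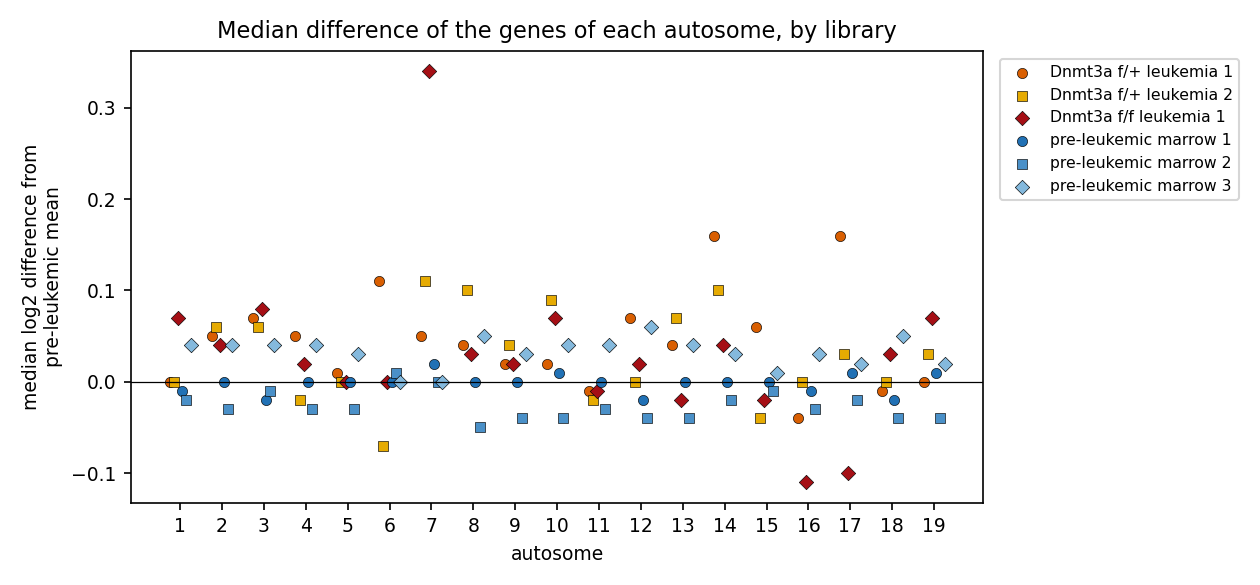
Points are the median log2 difference from the mean of the pre-leukemic marrows over the genes of each autosome, for each library. Chromosome 7 of the Dnmt3a f/f leukemia is at 0.34, and its other autosomes are between -0.11 and 0.08.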

How the data were processed

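The 6 knock-in libraries were assigned to groups from their labelled genotypes. The authors deposited 1 table of estimated counts per gene for the whole series, not scaled for depth, and estimated counts per transcript model with mm9 gene models. Per the submitters' processing notes, TopHat2 2.0.10, Cufflinks and Cuffdiff 2.2.1 were used with mm9; which tool wrote the counts, the strand setting and any filter were not given in the sources used here. Between 98.3% and 98.5% of the nonzero values of these libraries were whole within 0.001, and all were rounded. No row lacked a gene name, and 133 names lie on more than 1 locus.

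In R 4.3.3, edgeR 4.0.16 (filterByExpr, trimmed-mean scaling with factors 0.913 to 1.079, quasi-likelihood test, two-sided, Benjamini-Hochberg adjustment over all tested genes, threshold 0.05) was fitted to the 6 libraries with 2 groups, and with 3 groups for Dnmt3a f/f against f/+. The standard error (SE) of a log2 fold change was derived from the F statistic. Alternatives used DESeq2 1.42.0, limma 3.58.1 (voom), other scalings and filters, all 17 libraries, thinned counts, a replicate block and each library left out. The scripts were tested on simulated data with a smaller spread between libraries than these data have. That checks the code and says nothing of error rates here. Counting intervals and floors cover counting error only, since fragments without molecular identifiers are not independent molecules.

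Named were the 12 largest rises and falls with adjusted p below 0.05, a mean of 5 CPM or more on the higher side and no overlap, up to 4 passing and 2 abundant genes per list, and fixed genes. Predicted names were left out, and a few genes that stay in the list counts are not reported here by name. The samples compared, the 31 gene lists and the naming rule were chosen with earlier results of these data known. Deposited FPKM files and the retroviral samples were not used for the main fit.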

Additional observations from a re-analysis of the deposited data

How the results depend on the processing

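The pooled comparison called 816 genes, 502 rises and 314 falls. Scaling by median ratios, upper-quartile scaling, no filter, a filter of 5 CPM in 3 libraries and thinning to the smallest total gave 808, 837, 754, 859 and 881 calls, and upper-quartile scaling split them into 416 rises and 421 falls. DESeq2 called 2669 genes (1561 rises, 1108 falls), limma voom 296 (134 and 162), and the fit of all 17 libraries 1455 (820 and 635). Leaving out 1 library gave 0 to 4319 calls (0 to 2374 rises, 0 to 1945 falls), with 0 calls in 4 of these 6 fits; the cause was not tested. Replicate numbers are shared by the groups. Deviations of same-numbered Dnmt3a f/+ leukemias and pre-leukemic marrows from their group means correlated at r of -0.064 and -0.196. With only 2 Dnmt3a f/+ leukemias these deviations mirror each other, so r cannot show whether the numbers pair anything. With the replicate block 0 genes passed (0 rises and 0 falls, with 1822 at an unadjusted p below 0.05). Pre-leukemic marrow 3 was alone in its block there and added nothing to the group difference. For Dnmt3a f/f against f/+ leukemia, DESeq2 called 176 genes, and leaving out 1 Dnmt3a f/+ leukemia gave 0 to 2738 calls.

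Of 100 named genes with a call, 98 remained with median ratios, 97 with upper-quartile scaling, 98 with no filter, 41 with limma voom and 64 in the fit of all 17 libraries. All 100 remained without Dnmt3a f/+ leukemia 1, 26 without the Dnmt3a f/f leukemia and 0 under the replicate block. No called gene changed sign in any of these alternatives. Named genes without a call that did change sign, given as log2 fold changes, were Bak1 (0.05; upper-quartile scaling -0.06, thinned -0.04), Nfe2 (0.08; upper-quartile scaling -0.03), Mki67 (0.18; voom -0.16, all libraries -0.22), Mpo (0.25; voom -0.02), Cd74 (0.19; voom -0.31, replicate block -0.42), Socs2 (1.11; voom -0.19, replicate block -0.03) and Txnip (0.48; replicate block -0.09). With 1 library left out the ranges were -0.05 to 0.17 for Bak1, -2.37 to 0.20 for Car2, -1.16 to 0.64 for Cd74, -0.70 to 3.26 for Cish, -0.76 to 0.10 for Flt3, -0.51 to 0.02 for Ly6e, -0.89 to 0.59 for Mki67, -0.07 to 0.68 for Mpo, -0.02 to 0.23 for Nfe2, -0.39 to 0.05 for Npm1, -0.50 to 0.04 for Psmb8, -1.73 to 1.66 for Socs2 and -0.09 to 0.93 for Txnip. Pre-leukemic marrows 1 and 2 are the shallowest libraries, so genes at a few CPM rest on few fragments there.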
